A study of Rattus norvegicus with 9 samples.

Results

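Phenylephrine was compared with vehicle at 48 hours in primary ventricular myocytes from newborn rats, the culture in which much of the work on hypertrophic growth of heart cells has been done. The comparison used the 3 phenylephrine samples and the 3 vehicle samples, 6 of the 9 samples of the series, and was fitted across all genes from the raw counts of these 6 columns only. The members of the comparison are therefore samples, chosen by their labelled treatment. The other 3 samples, treated with 10 nM IGF1, did not enter the fit. Cells of the treated group received 50 µM phenylephrine for 48 hours and those of the control group received vehicle, whose composition the labels do not give. Both groups are described as primary cardiomyocytes, and no genotype, strain or serum condition is labelled. Libraries were made from total RNA with the NuGEN Ovation kit, and an Illumina NovaSeq was used for sequencing. Whether the replicates of a group were separate isolations or dishes is not labelled. The p-values therefore rest on the variation among these particular samples, part or all of which may be technical.

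Phenylephrine is an agonist of alpha1-adrenergic receptors, which couple to the Gq class of G proteins. Gq activates phospholipase C, which releases inositol trisphosphate and diacylglycerol, and these in turn raise calcium and activate protein kinase C, with mitogen-activated kinases and calcineurin further downstream. In neonatal ventricular myocytes the agonist is known for enlarging the cells, assembling sarcomeres and turning on genes of the fetal heart such as those of the natriuretic peptides.

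Total counts ran from 31274396 to 48505265 per sample, and 1 CPM, the unit of level used below (reads scaled by the normalized library size), rested on 29.1 to 51.9 reads. The first principal component held 87.9% of the variance and separated the groups. Of 17327 genes in the table, 11649 had enough reads to be tested. Of these, 3794 (32.6%) were higher with phenylephrine and 3717 (31.9%) were lower at an adjusted p under 0.05, so that 64.5% of tested genes passed in one direction or the other. At least 2-fold rises made up 3.23% of tested genes (376) and at least 2-fold falls 4.05% (472). The median log2 fold change of all tested genes was -0.0184. The split of calls depended on scaling, and the 10 most abundant genes took 9.41 to 9.42% of the counts with phenylephrine and 7.13 to 7.43% with vehicle. Scaling by library size alone moved the median of all genes to -0.22 and left 24.4% of the calls on the higher side, against 50.5% with the trimmed mean of M-values, and upper quartile factors left 39.7%. With library size scaling 17.3% of all tested genes were higher and 53.8% lower, and the family counts given below for that scaling are read against these shares and not against those of the main scaling. Groups that do not overlap were common: in 67.2% of tested genes (7826) all phenylephrine samples lay on one side of all vehicle samples, so that such a separation does not set a gene apart.

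**Figure D1:**
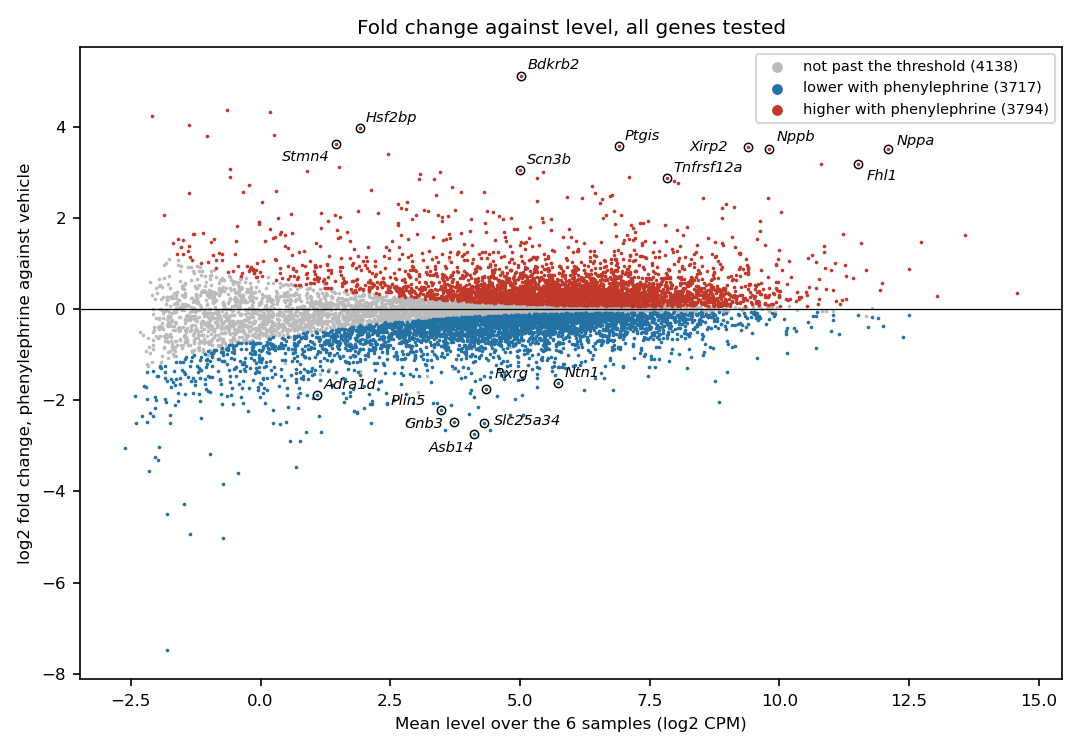
Log2 fold change of phenylephrine against vehicle (vertical axis) by mean level over the 6 samples (horizontal axis, log2 CPM) for the 11649 tested genes. Red points are the 3794 genes that were higher, blue points the 3717 that were lower and grey points those that did not pass the threshold; circles mark 17 genes discussed in the text, of which Bdkrb2 had the largest rise.

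Markers of cardiomyocytes were abundant in all 6 samples. The summed level of the 14 listed cardiomyocyte markers was 51400 to 55020 CPM with vehicle and 78180 to 79390 CPM with phenylephrine. Of the 14, 10 rose and 3 fell, against 32.6% and 31.9% of all genes. Actc1, cardiac actin, had the largest rise of the list (3.08-fold, from 5990.4 ± 152 to 18459.9 ± 239 CPM), and Tnnc1, a troponin subunit gene, rose 1.81-fold, from 2317 ± 42 to 4203 ± 147 CPM. The 3 that fell were Pln, the inhibitor of the sarcoplasmic reticulum calcium pump (1.31-fold), the calcium release channel gene Ryr2 (1.11-fold) and cardiac troponin I (Tnni3, 1.10-fold, from 1743 ± 97 to 1581 ± 43 CPM); they and the risers named were chosen after their values were seen. Markers of other cells were present too. Of 10 tested fibroblast markers 1 rose and 3 fell, and their summed level was 5065 to 6080 CPM with vehicle and 4738 to 4840 CPM with phenylephrine. The 10 endothelial markers summed to 89.1 to 96.5 and 74.6 to 87.9 CPM, and macrophage and leukocyte markers to 75.8 to 86.4 and 70.7 to 89.4 CPM. The smooth muscle and pericyte markers summed to 2491 to 2527 CPM with vehicle and 5759 to 5992 CPM with phenylephrine. This sum was led by desmin (Des, from 1622 ± 16 to 4448 ± 96 CPM), an intermediate filament that cardiomyocytes also make. Mcam rose 2.20-fold, from 272 ± 3.8 to 599 ± 6.9 CPM, and Cspg4 rose 2.80-fold, from 89.5 ± 3.1 to 251 ± 14 CPM. Cnn1, encoding calponin, rose 5.66-fold, from 32.6 ± 1.1 to 185 ± 5.9 CPM, while the smooth muscle myosin gene Myh11 fell 1.22-fold. Of the list's 11 members 4 rose and 5 fell. Several listed markers were under 10 reads in every sample, among them Cd163 and Bnc1. The part of other cells in the results below was not tested, and in RNA from whole cultures fewer cells of a type and less RNA per cell cannot be told apart.

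All 10 listed markers of hypertrophy rose, against 32.6% of all genes. The list was chosen with earlier results of these data known, so this count is a description and not a check of the treatment. The gene of atrial natriuretic peptide, Nppa, stood at 723, 734 and 648 CPM with vehicle and 8009, 7799.6 and 8242 CPM with phenylephrine (log2 fold change 3.51, SE 0.040, adjusted p = 8.5e-30). Nppb, which encodes B-type natriuretic peptide, rose 11.3-fold, from 144 ± 9.3 to 1631 ± 36 CPM. Xirp2, whose product binds actin at the intercalated disc, measured 97.9, 112 and 104 CPM with vehicle and 1103, 1219 and 1376 CPM with phenylephrine (log2 fold change 3.56, SE 0.12, adjusted p = 1.1e-05). Fhl1, a sarcomeric LIM protein gene, rose 9.11-fold, and Acta1, the skeletal muscle actin of the fetal heart program, rose 9.14-fold, from 351 ± 16 to 3204 ± 167 CPM. Rcan1, a calcineurin inhibitor that is itself a target of calcineurin signalling, rose 2.31-fold. Changes in Myh7 and Atp2a2 were smaller. Myh7, the beta myosin heavy chain gene, rose 1.28-fold, and Atp2a2, the sarcoplasmic reticulum calcium pump gene, fell 1.52-fold, from 6453 ± 135.2 to 4242 ± 67 CPM. Reads can be shared between near-identical copies such as Acta1 and Actc1 or Myh7 and Myh6, so these values are uncertain in that respect. In each of these genes, as in 67.2% of all tested genes, the phenylephrine samples lay wholly on one side of the vehicle samples.

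The upstream sequence of Acta1 is shown because it holds a CArG box, the element bound by serum response factor, and Srf itself rose. The sequence is from RefSeq on the GRCr8 build (minus strand, chr19:68784195-68784444), covers the 250 bases before the annotated start and is written 5′ to 3′, with the match in capitals.
Acta1: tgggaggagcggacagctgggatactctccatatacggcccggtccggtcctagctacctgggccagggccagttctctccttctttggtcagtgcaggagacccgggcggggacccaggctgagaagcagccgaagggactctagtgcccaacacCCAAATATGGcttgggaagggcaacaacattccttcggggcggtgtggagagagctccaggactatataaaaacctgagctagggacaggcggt
The match began 94 bases before the start. CArG boxes were found on either strand in 1.19% of the 8466 tested genes with a single window of 250 bases before to 50 after the start, in 1.16% of 259 such genes at least 2-fold higher and in 1.20% of 332 at least 2-fold lower. The 3 shares were thus close to each other.

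Among the receptors, the largest rise was that of Bdkrb2, the B2 receptor of bradykinin, a Gq-coupled receptor. Bdkrb2 measured 1.69, 1.94 and 1.83 CPM with vehicle and 59.4, 66.1 and 63.8 CPM with phenylephrine, a 34.7-fold rise (log2 fold change 5.12, SE 0.078, adjusted p = 3.2e-36). Its fold change was the largest of the genes that the naming rule could take. F2rl1, a receptor switched on when proteases cut its N-terminus, rose 7.99-fold, from 2.12, 3.13 and 2.16 CPM in the vehicle samples to 19.2, 19.8 and 19.5 CPM. C3ar1, the receptor of the complement fragment C3a, rose 7.76-fold, from 1.91 ± 0.076 to 14.8 ± 1.0 CPM, and Gpr75 rose 5.08-fold, from 2.29 ± 0.60 to 11.8 ± 1.2 CPM. The groups did not overlap for these 4 genes, which the naming rule required. Going down were Glp2r, a receptor of an intestinal glucagon-like peptide (3.71-fold), the glucagon receptor gene Gcgr (2.75-fold) and the chemokine receptor gene Cxcr4 (2.29-fold, from 12.4 ± 0.94 to 5.43 ± 0.94 CPM). Outside the naming rule and chosen after their values were seen, S1pr1, a receptor of sphingosine 1-phosphate, rose 3.62-fold, from 96.3 ± 2.7 to 348 ± 5.2 CPM. Chosen in the same way, the endothelin receptor gene Ednra fell 1.96-fold and the angiotensin II receptor gene Agtr1a fell 1.75-fold. Of the G protein-coupled receptors, with 137 tested members (348 in the table), 30 rose (21.9%), 47 fell (34.3%) and 60 did not pass the threshold (median log2 fold change -0.22). The rises were thus a smaller share than the 32.6% of all genes, and the falls were close to 31.9%.

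The receptors of the agonist itself moved in different directions. Adra1a measured 13.7, 13.9 and 13.1 CPM with vehicle and 19.2, 23.3 and 21.6 CPM with phenylephrine (log2 fold change 0.66, SE 0.074, adjusted p = 6.0e-10). Adra1b, by contrast, measured 29.7, 31.8 and 27.8 CPM with vehicle and 15.5, 13.6 and 17.02 CPM with phenylephrine (log2 fold change -0.95, SE 0.071, adjusted p = 4.2e-14), and Adra1d stood at 3.31, 3.25 and 3.54 CPM with vehicle and 0.515, 1.09 and 1.10 CPM with phenylephrine (log2 fold change -1.89, SE 0.23, adjusted p = 5.5e-09). The 3 treated samples were higher than every control for Adra1a and lower than every control for Adra1b and Adra1d, a separation found in 67.2% of all tested genes.

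Receptor tyrosine kinases fell more often than they rose. Of the 47 tested members (52 in the table), 8 rose (17%), 21 fell (44.7%) and 18 did not pass the threshold (median log2 fold change -0.13). Scaling by library size gave 8 higher (17%) and 27 lower (57.4%), where all genes had 17.3% and 53.8%. The rises included Ror1, a receptor for Wnt ligands, at 15.4, 17.1 and 16.7 CPM with vehicle and 56.2, 56.7 and 58.6 CPM with phenylephrine (log2 fold change 1.801, SE 0.054, adjusted p = 6.4e-27). They also included Flt4, a receptor of lymphatic vascular growth factors (3.57-fold), the ephrin receptor gene Epha2 (2.40-fold, from 16.8 ± 1.4 to 40.3 ± 1.9 CPM) and the neurotrophin receptor gene Ntrk2 (2.39-fold). Other ephrin receptor genes went the opposite way to Epha2: Epha4 fell 2.42-fold and Epha3 fell 2.37-fold, from 43.8 ± 3.4 to 18.5 ± 1.3 CPM. Erbb4, through which neuregulin acts on cardiomyocytes, measured 19.8, 24.5 and 19.2 CPM with vehicle and 9.51, 11.04 and 9.46 CPM with phenylephrine (log2 fold change -1.08, SE 0.089, adjusted p = 3.0e-12). Mertk, a receptor used in clearing dead cells, fell 1.83-fold.

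Cytokine, TNF and TGF-beta family receptors were led by Tnfrsf12a, the receptor of the cytokine TWEAK, which was also on the list of hypertrophy markers. It measured 56.6, 52.6 and 54.1 CPM with vehicle and 400.5, 409 and 389 CPM with phenylephrine, a 7.34-fold rise. Relt, another receptor of the TNF family, rose 3.68-fold. Lifr, the receptor subunit for leukaemia inhibitory factor and cardiotrophin, fell 2.48-fold, from 53.4 ± 4.1 to 21.5 ± 1.4 CPM, and Tgfbr3, the co-receptor betaglycan, fell 1.91-fold, from 108 ± 4.1 to 56.2 ± 0.84 CPM. Tnfrsf11a, the receptor of the bone-resorption factor RANK ligand, fell 2.74-fold. Of the 66 tested members (93 in the table), 25 rose (37.9%), 20 fell (30.3%) and 21 did not pass the threshold (median log2 fold change 0.06). With scaling by library size alone the counts were 14 higher (21.2%) and 29 lower (43.9%), where all genes had 17.3% and 53.8%.

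Among nuclear receptors, Nr4a3 and Nr4a1, orphan receptors that respond early to stimuli, rose, while retinoid X and thyroid hormone receptor genes fell. Nr4a3 measured 2.38, 2.11 and 2.89 CPM with vehicle and 16.7, 18.4 and 18.7 CPM with phenylephrine (log2 fold change 2.86, SE 0.11, adjusted p = 7.1e-23), and its relative Nr4a1 rose 1.92-fold. Rxrg, a retinoid X receptor that pairs with several other nuclear receptors, measured 30.6, 30.1 and 33.5 CPM with vehicle and 10.1, 9.44 and 8.62 CPM with phenylephrine (log2 fold change -1.74, SE 0.072, adjusted p = 2.0e-22), and Rxra fell 1.82-fold, from 54.8 ± 2.1 to 30.0 ± 2.2 CPM. Thrb, a thyroid hormone receptor gene, fell 1.73-fold. Of the 33 tested members (42 in the table), 7 rose (21.2%), 16 fell (48.5%) and 10 did not pass the threshold (median log2 fold change -0.19), so the share that fell was above the 31.9% of all genes.

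**Figure D2:**
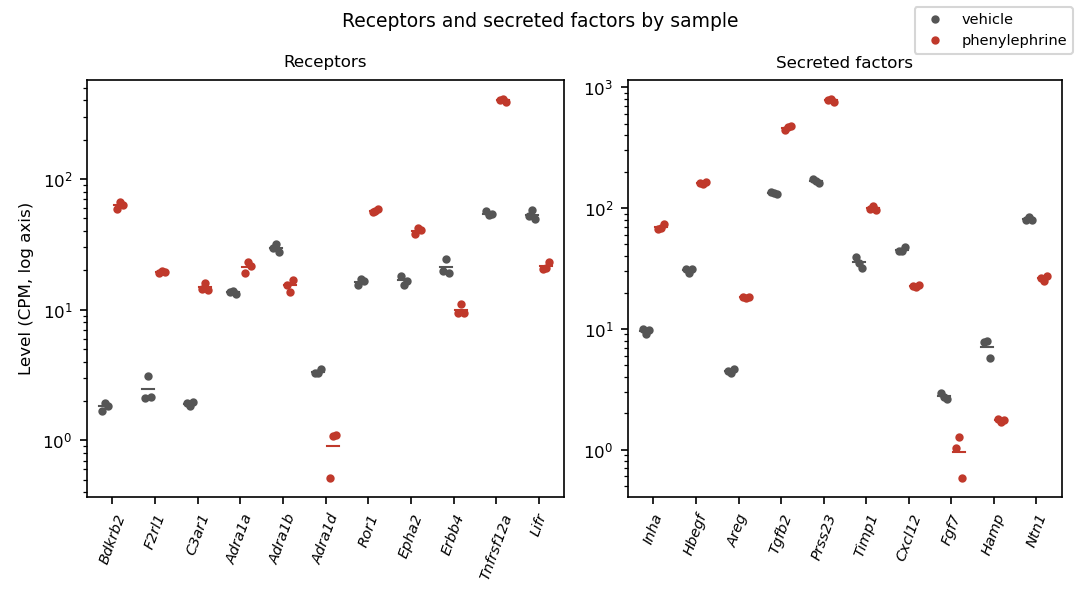
Level of 11 receptor genes (left) and 10 genes of secreted factors (right) in CPM on log axes. Each point is 1 of 3 vehicle samples (grey) or 3 phenylephrine samples (red) and each line is the group mean; the groups do not overlap for any gene shown (nor in 67.2% of all tested genes), and Adra1a lies on the higher side while Adra1b and Adra1d lie on the lower side.

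Genes of secreted growth factors included ligands of the epidermal growth factor receptor among the largest rises. Hbegf, heparin-binding EGF-like growth factor, measured 31.3, 29.0 and 31.3 CPM with vehicle and 161, 159 and 165 CPM with phenylephrine (log2 fold change 2.40, SE 0.039, adjusted p = 1.9e-35), and Areg, encoding amphiregulin, rose 4.08-fold, from 4.46 ± 0.16 to 18.2 ± 0.33 CPM. Both are made as membrane precursors that proteases release. Inha, the alpha subunit of inhibin, measured 10.0, 9.10 and 9.70 CPM with vehicle and 67.7, 69.0 and 74.1 CPM with phenylephrine (log2 fold change 2.87, SE 0.057, adjusted p = 1.0e-32), and Tgfb2, a ligand of the transforming growth factor beta receptors, rose 3.48-fold, from 133 ± 2.1 to 463 ± 15 CPM. Outside the naming rule and chosen after its values were seen, Ctgf, the connective tissue growth factor gene, rose 2.59-fold, from 1034 ± 23 to 2680.1 ± 63 CPM, with an adjusted p of 1.2e-31 here and 0.083 in a fit of all 9 samples. On the lower side were Fgf7, keratinocyte growth factor (2.88-fold), Nrtn, a ligand of the GDNF family (2.74-fold), and Ntf3, a neurotrophin (2.14-fold, from 19.9 ± 0.50 to 9.30 ± 0.94 CPM). Fgf13 fell 2.31-fold, from 79.0 ± 3.3 to 34.3 ± 1.7 CPM; despite its name its product stays in the cell and binds sodium channels. In the main scaling the family leaned down: of the 80 tested members (121 in the table), 18 rose (22.5%), 36 fell (45%) and 26 did not pass the threshold (median log2 fold change -0.22). Scaling by library size gave 15 higher (18.8%) and 45 lower (56.2%), close to the 17.3% and 53.8% of all genes.

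Peptide hormone genes other than the natriuretic peptides also changed. Pnoc, the precursor of nociceptin, rose 8.12-fold, from 0.303, 0.558 and 0.366 CPM to 3.40, 3.55 and 2.91 CPM, and Adm2, a peptide of the adrenomedullin family, rose 4.15-fold. Adm, adrenomedullin itself, moved the other way and fell 1.66-fold, from 16.4 ± 1.2 to 9.90 ± 1.1 CPM. Hamp, the iron-regulating hormone hepcidin, measured 7.74, 7.96 and 5.74 CPM with vehicle and 1.78, 1.70 and 1.78 CPM with phenylephrine (log2 fold change -2.02, SE 0.16, adjusted p = 9.9e-14). Fndc5, the precursor of irisin, fell 2.53-fold, and Pcsk5, a proprotein convertase, fell 1.81-fold. Of the 46 tested members (100 in the table), 17 rose (37%), 11 fell (23.9%) and 18 did not pass the threshold (median log2 fold change -0.04); with library size scaling the counts were 12 higher (26.1%) and 19 lower (41.3%).

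Among cytokines and chemokines, Ccl27, a chemokine known from skin, rose 7.19-fold, from 2.01 ± 0.28 to 14.5 ± 2.0 CPM, Il12a, a subunit of interleukin 12, rose 4.44-fold, and Ccl20 rose 2.98-fold, from 13.2 ± 0.88 to 39.1 ± 2.3 CPM. Cxcl12, the ligand of Cxcr4, measured 44.1, 43.8 and 47.4 CPM with vehicle and 22.6, 22.2 and 23.1 CPM with phenylephrine (log2 fold change -0.99, SE 0.054, adjusted p = 9.3e-19), so that the gene of this ligand and that of its receptor both fell. The interferon-induced chemokine genes Cxcl11 and Cxcl10 fell 4.20-fold and 2.71-fold. Irf7, a transcription factor of the interferon response, measured 31.3, 28.6 and 54.8 CPM with vehicle and 12.8, 15.7 and 10.9 CPM with phenylephrine (log2 fold change -1.54, SE 0.37, adjusted p = 0.021). Vehicle replicate 3 was far above the other vehicle samples for Irf7; without it the log2 fold change was -1.18 with an adjusted p of 2.1e-12, while a block for the replicate number gave an adjusted p of 0.088. Without any 1 phenylephrine sample the adjusted p ran from 0.056 to 0.080, so the call for Irf7 rests on few samples. Of the 38 tested members (94 in the table), 8 rose (21.1%), 10 fell (26.3%) and 20 did not pass the threshold (median log2 fold change -0.07). Both shares were below the 32.6% and 31.9% of all genes.

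Secreted proteases and their inhibitors held some of the more abundant secreted products. The serine protease gene Prss23 measured 175, 169 and 163 CPM with vehicle and 789, 801 and 761 CPM with phenylephrine (log2 fold change 2.21, SE 0.032, adjusted p = 3.5e-37). Timp1, an inhibitor of matrix metalloproteinases, rose 2.80-fold, from 35.6 ± 3.9 to 99.5 ± 4.1 CPM, Wfdc1 rose 6.44-fold and the metalloprotease gene Adamts19 rose 2.90-fold. Mmp15, a membrane-bound matrix metalloproteinase, fell 1.74-fold, from 142 ± 3.6 to 81.5 ± 5.9 CPM, while Adamts7 fell 1.83-fold and Adam1a fell 2.84-fold. Of the 88 tested members (179 in the table), 25 rose (28.4%), 24 fell (27.3%) and 39 did not pass the threshold (median log2 fold change -0.04), and with library size scaling 18 higher (20.5%) and 43 lower (48.9%).

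Axon guidance genes, whose products also steer vessel and heart development, fell more often than they rose. Netrin 1 (Ntn1) measured 79.3, 84.1 and 79.0 CPM with vehicle and 26.2, 25.0 and 27.5 CPM with phenylephrine (log2 fold change -1.62, SE 0.047, adjusted p = 2.0e-27), whereas Unc5b, a netrin receptor, rose 2.29-fold, from 85.1 ± 7.1 to 194 ± 9.1 CPM. The semaphorin gene Sema3c rose 2.78-fold, from 101 ± 3.6 to 280.1 ± 12 CPM, while Sema6d fell 2.15-fold. Of the 54 tested members (68 in the table), 6 rose (11.1%), 27 fell (50%) and 21 did not pass the threshold (median log2 fold change -0.30). Over all genes 32.6% rose and 31.9% fell. Library size scaling gave 4 higher (7.41%) and 33 lower (61.1%), where all genes had 17.3% and 53.8%.

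**Figure D3:**
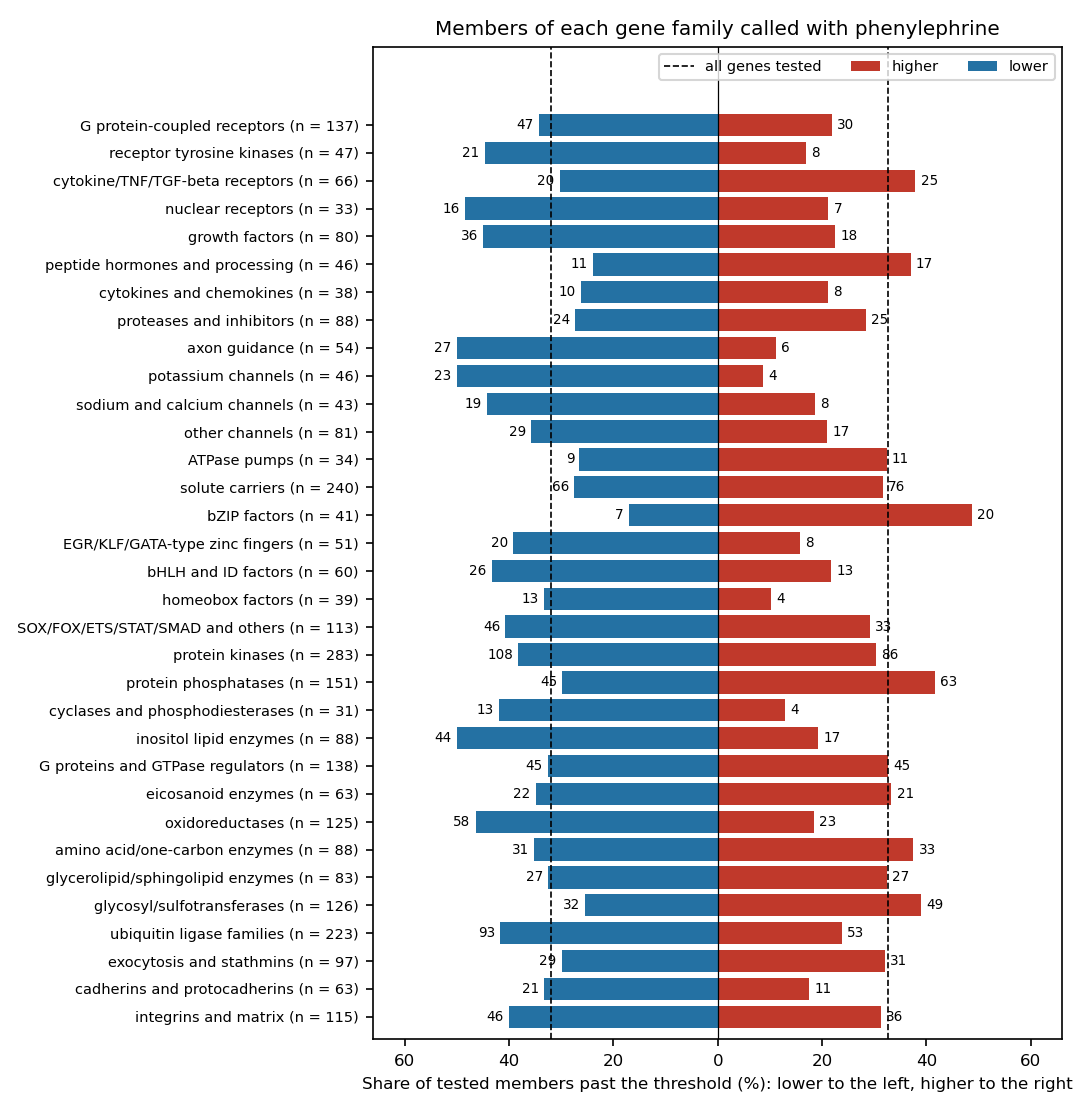
Share of tested members of each of 33 gene families that were higher (right, red) or lower (left, blue) with phenylephrine, in percent, with the number of members beside each bar. Dashed lines mark the shares over all tested genes, 32.6% and 31.9%; potassium channels had 4 members higher and 23 lower, and bZIP factors 20 higher and 7 lower. With library size scaling, not drawn, potassium channels had 3 higher (6.52%) and 25 lower (54.3%). The bZIP factors had 16 higher (39%) and 20 lower (48.8%) in that scaling, and all genes 17.3% and 53.8%.

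Ion channel genes fell more often than they rose, and potassium channels had the lowest median of the 33 families. Of the 46 tested members (97 in the table), 4 rose (8.7%), 23 fell (50%) and 19 did not pass the threshold (median log2 fold change -0.48). Under library size scaling 3 were higher (6.52%) and 25 lower (54.3%), where all genes had 17.3% and 53.8%. The falls were then close to the share of all genes, and the rises were below it. Kcna4, a pore subunit of transient outward current, measured 35.4, 38.8 and 34.7 CPM with vehicle and 13.5, 13.5 and 13.2 CPM with phenylephrine (log2 fold change -1.44, SE 0.064, adjusted p = 1.8e-21). Kcnj2, the main inward rectifier of ventricular cells, stood at 36.9, 41.4 and 39.8 CPM with vehicle and 16.5, 17.4 and 16.3 CPM with phenylephrine (log2 fold change -1.23, SE 0.060, adjusted p = 4.3e-20). Kcnj3, a subunit of the potassium channel opened by acetylcholine, fell 2.52-fold, and Kcnn1, a calcium-activated channel gene, fell 2.20-fold. Outside the naming rule and chosen after their values were seen, Kcnd3, another pore subunit of transient outward current, fell 1.85-fold, from 45.8 ± 0.96 to 24.8 ± 1.4 CPM, and Kcnj11, the pore of the ATP-sensitive channel, fell 1.82-fold, from 113 ± 1.2 to 62.0 ± 2.0 CPM. Kcnip2, the accessory subunit of the Kcnd channels, was also chosen after its values were seen. It had 39, 30 and 29 reads in the vehicle samples and 0, 2 and 1 reads with phenylephrine, a ratio of 20.9 after scaling for depth (95% interval 6.95 to 103 for counting error only). Rises were few and included Kcne1, an accessory subunit of the slow delayed rectifier (3.08-fold, to 2.61, 1.504 and 2.16 CPM), and Kcnk2, a background channel (1.23-fold). The rise of Kcnk2 did not pass with library size scaling (adjusted p = 0.38) or without vehicle replicate 3 (adjusted p = 0.0503).

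Sodium and calcium channels had 43 tested members (60 in the table), of which 8 rose (18.6%), 19 fell (44.2%) and 16 did not pass the threshold (median log2 fold change -0.15). Library size scaling gave 5 higher (11.6%) and 25 lower (58.1%), where all genes had 17.3% and 53.8%. The largest change was that of the sodium channel beta subunit gene Scn3b, at 6.39, 7.16 and 7.36 CPM with vehicle and 50.8, 53.3 and 67.8 CPM with phenylephrine (log2 fold change 3.04, SE 0.13, adjusted p = 6.3e-08); in a fit of all 9 samples its log2 fold change was 3.03 and its adjusted p 0.0509. The beta subunit gene Scn4b went the other way, at 17.8, 20.04 and 18.4 CPM with vehicle and 8.58, 9.19 and 10.3 CPM with phenylephrine (log2 fold change -0.997, SE 0.083, adjusted p = 3.1e-13). Scn1a, a pore subunit better known from neurons, rose 1.67-fold. Cacnb2 and Cacna2d1, auxiliary subunits of the L-type calcium channel, rose 1.47-fold and 1.49-fold, while its pore gene Cacna1c, chosen after its values were seen, fell 1.47-fold, from 276 ± 17 to 187 ± 7.5 CPM. Stim1, a calcium sensor of the endoplasmic reticulum, fell 1.52-fold.

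Other channels included P2rx5, an ATP-gated channel, at 9.16, 8.83 and 7.39 CPM with vehicle and 32.0, 32.6 and 29.7 CPM with phenylephrine (log2 fold change 1.90, SE 0.075, adjusted p = 5.8e-23), the intracellular chloride channel family gene Clic5, which rose 2.24-fold, from 271 ± 14 to 608 ± 17 CPM, and Lrrc8c, a subunit of the volume-regulated anion channel, which rose 2.17-fold. Gja1, which encodes the main gap junction protein of ventricular myocytes, measured 2155, 2157 and 2107 CPM with vehicle and 1222, 1179 and 1156 CPM with phenylephrine (log2 fold change -0.85, SE 0.029, adjusted p = 4.3e-25). Htr3a, a serotonin-gated channel gene, fell 4.77-fold, and Aqp7, a glycerol-permeable aquaporin, fell 2.51-fold. Of the 81 tested members (172 in the table), 17 rose (21%), 29 fell (35.8%) and 35 did not pass the threshold (median log2 fold change -0.19). Library size scaling gave 13 higher (16%) and 39 lower (48.1%), where all genes had 17.3% and 53.8%. In that scaling falls were a smaller share than over all genes.

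Subunits of the sodium pump moved in opposite directions. The beta2 subunit gene Atp1b2 measured 46.4, 47.0 and 45.6 CPM with vehicle and 23.4, 23.4 and 24.2 CPM with phenylephrine (log2 fold change -0.97, SE 0.052, adjusted p = 5.8e-19). The beta1 subunit gene Atp1b1, however, measured 472, 460.4 and 456.4 CPM with vehicle and 878, 867 and 888 CPM with phenylephrine (log2 fold change 0.92, SE 0.028, adjusted p = 1.2e-26), and the pump regulators Fxyd5 and Fxyd1 rose 2.88-fold and 1.57-fold. Atp2b2, a plasma membrane calcium pump gene, fell 5.76-fold from low levels, from 2.22 ± 0.51 to 0.383 ± 0.031 CPM. Of the ATPase pumps, with 34 tested members (42 in the table), 11 rose (32.4%), 9 fell (26.5%) and 14 did not pass the threshold (median log2 fold change -0.0025), against 7 higher (20.6%) and 16 lower (47.1%) with library size scaling.

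Solute carriers, the largest transporter group, were close to the background. Of the 240 tested members (354 in the table), 76 rose (31.7%), 66 fell (27.5%) and 98 did not pass the threshold (median log2 fold change -0.0073), with 45 higher (18.8%) and 111 lower (46.2%) under library size scaling. Slc7a3, a carrier of cationic amino acids, measured 6.35, 5.90 and 4.99 CPM with vehicle and 32.7, 34.7 and 33.8 CPM with phenylephrine (log2 fold change 2.56, SE 0.078, adjusted p = 1.1e-26), and Slc25a26, which brings S-adenosylmethionine into mitochondria, rose 3.64-fold, from 49.2 ± 2.0 to 179 ± 3.8 CPM. Slc16a6, of the monocarboxylate carrier family, rose 3.01-fold. Carriers that fell included the mitochondrial Slc25a34, at 33.5, 32.7 and 34.4 CPM with vehicle and 6.83, 4.87 and 6.27 CPM with phenylephrine (log2 fold change -2.49, SE 0.082, adjusted p = 7.8e-25), and Slc16a10, a carrier of aromatic amino acids and thyroid hormones, which fell 3.42-fold. Slc27a1, a fatty acid transport protein gene, fell 2.83-fold, from 129 ± 1.5 to 45.5 ± 0.34 CPM. Outside the naming rule and chosen after its values were seen, Slc2a4, the insulin-responsive glucose transporter gene, fell 2.40-fold, from 75.5 ± 0.83 to 31.4 ± 2.3 CPM.

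**Figure D4:**
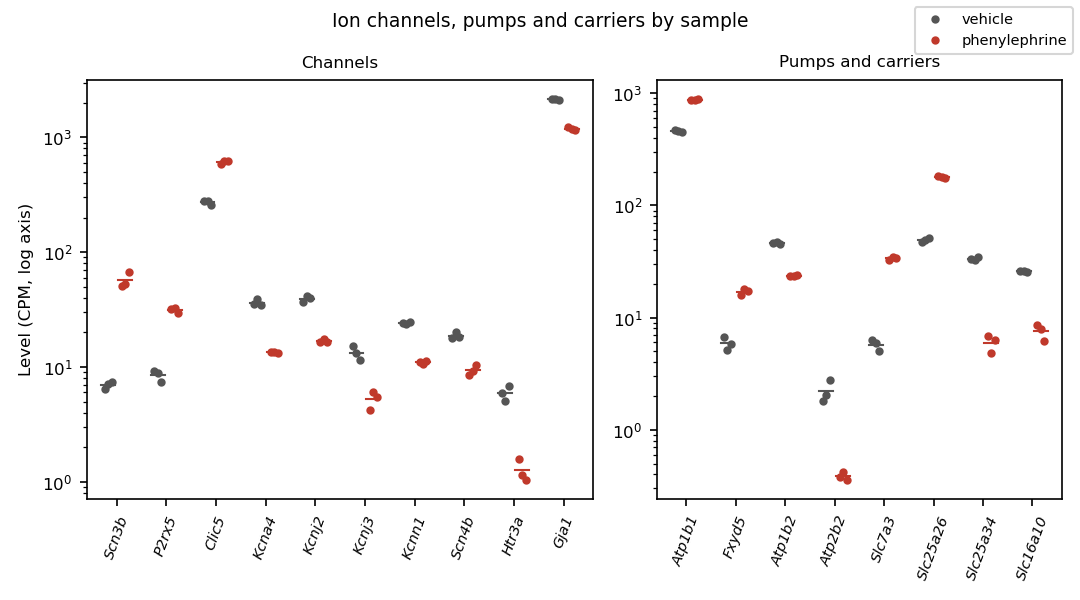
Level of 10 channel genes (left) and 8 pump and carrier genes (right) in CPM on log axes. Points are the 3 vehicle (grey) and 3 phenylephrine (red) samples and lines are group means; the groups do not overlap for any gene shown (nor in 67.2% of all tested genes), with Scn3b, P2rx5, Clic5, Atp1b1, Fxyd5, Slc7a3 and Slc25a26 higher and the others lower.

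Transcription factor families divided by class. The bZIP factors, which include the AP-1 and CREB proteins, had 41 tested members (46 in the table), of which 20 rose (48.8%), 7 fell (17.1%) and 14 did not pass the threshold (median log2 fold change 0.12). With library size scaling the counts were 16 higher (39%) and 20 lower (48.8%), where all genes had 17.3% and 53.8%, so rises were a larger share and falls a smaller share than over all genes in both scalings. Creb5 measured 5.04, 4.88 and 4.81 CPM with vehicle and 20.6, 22.8 and 22.9 CPM with phenylephrine (log2 fold change 2.17, SE 0.089, adjusted p = 1.4e-22), and Atf3, a factor induced by stress, stood at 9.36, 10.3 and 8.86 CPM with vehicle and 39.4, 40.4 and 37.7 CPM with phenylephrine (log2 fold change 2.05, SE 0.066, adjusted p = 8.5e-26). The AP-1 genes Fosb and Fosl1 rose 3.83-fold and 3.08-fold, and Fos, chosen after its values were seen, rose 2.39-fold, from 11.4 ± 0.30 to 27.2 ± 0.82 CPM. The bZIP factors of circadian output, Dbp and Tef, fell 1.55-fold and 1.44-fold, and Ddit3, a factor of the unfolded protein response, fell 1.45-fold.

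Zinc finger factors fell in more members than they rose. Of the 51 tested members (66 in the table), 8 rose (15.7%), 20 fell (39.2%) and 23 did not pass the threshold (median log2 fold change -0.07). Over all genes 32.6% rose and 31.9% fell. Library size scaling gave 4 higher (7.84%) and 30 lower (58.8%), where all genes had 17.3% and 53.8%. The cardiac factor Gata4 measured 388, 397 and 393 CPM with vehicle and 624, 647 and 649 CPM with phenylephrine (log2 fold change 0.70, SE 0.028, adjusted p = 8.1e-23), and the immediate early gene Egr1 rose 1.86-fold. Klf15, a repressor of cardiac growth genes that also controls metabolic ones, measured 67.7, 70.1 and 64.8 CPM with vehicle and 38.9, 35.7 and 33.6 CPM with phenylephrine (log2 fold change -0.91, SE 0.048, adjusted p = 1.2e-18), and Snai2, known from epithelial to mesenchymal transition, fell 2.23-fold. The serum response factor gene Srf rose 1.58-fold, from 222 ± 6.8 to 351 ± 16 CPM, as did its cardiac and smooth muscle coactivator Myocd (1.82-fold, from 53.5 ± 1.4 to 97.6 ± 3.8 CPM).

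Basic helix-loop-helix factors fell in most called members, but Id1, Id3 and Id4, which lack a DNA-binding region and block other members, rose. Id1 measured 13.8, 14.996 and 13.4 CPM with vehicle and 47.1, 46.0 and 48.9 CPM with phenylephrine (log2 fold change 1.75, SE 0.058, adjusted p = 2.0e-25), Id4 rose 3.24-fold, from 9.61 ± 0.19 to 31.1 ± 0.67 CPM, and Id3 rose 2.15-fold. Srebf2, the activator of cholesterol synthesis genes, rose 2.27-fold, from 135.4 ± 1.7 to 307 ± 9.1 CPM. Mxi1, an antagonist of Myc, measured 107, 104 and 106 CPM with vehicle and 49.5, 44.2 and 49.3 CPM with phenylephrine (log2 fold change -1.14, SE 0.042, adjusted p = 3.4e-24), and Myc, chosen after its values were seen, rose 2.09-fold, from 21.1 ± 1.3 to 44.2 ± 2.0 CPM. Of the 60 tested members (94 in the table), 13 rose (21.7%), 26 fell (43.3%) and 21 did not pass the threshold (median log2 fold change -0.18).

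Homeobox factors had 39 tested members (156 in the table), of which 4 rose (10.3%), 13 fell (33.3%) and 22 did not pass the threshold (median log2 fold change -0.17). Over all genes 32.6% rose and 31.9% fell. Library size scaling gave 0 higher and 19 lower (48.7%), where all genes had 17.3% and 53.8%. Irx4, a factor of ventricular identity, measured 145, 147 and 146 CPM with vehicle and 68.0, 67.4 and 67.0 CPM with phenylephrine (log2 fold change -1.11, SE 0.034, adjusted p = 1.7e-26), Irx3, of the same family, fell 1.88-fold, and Prox1 fell 1.66-fold. Nkx2-5, a core cardiac factor, rose 1.18-fold, from 138 ± 3.6 to 163 ± 9.8 CPM, a change that did not pass with library size scaling (adjusted p = 0.35). In the pooled list of SOX, forkhead, T-box, ETS, IRF, NFAT and related factors, with 113 tested members (154 in the table), 33 rose (29.2%), 46 fell (40.7%) and 34 did not pass the threshold (median log2 fold change -0.09). Foxo1, a factor restrained by insulin signalling, measured 21.4, 23.1 and 22.3 CPM with vehicle and 11.98, 9.99 and 10.7 CPM with phenylephrine (log2 fold change -1.03, SE 0.075, adjusted p = 7.0e-15), and Nfatc2, a calcineurin-dependent factor, fell 2.03-fold, from 15.03 ± 0.86 to 7.39 ± 0.35 CPM.

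Protein kinases fell in a larger share than all genes, with 283 tested members (306 in the table). Of these, 86 rose (30.4%), 108 fell (38.2%) and 89 did not pass the threshold (median log2 fold change -0.04). Over all genes 32.6% rose and 31.9% fell. Library size scaling gave 33 higher (11.7%) and 169 lower (59.7%), where all genes had 17.3% and 53.8%. Plk2, a polo-like kinase, measured 115, 118 and 126 CPM with vehicle and 402, 403 and 395 CPM with phenylephrine (log2 fold change 1.74, SE 0.033, adjusted p = 1.8e-33), and Sik1, a salt-inducible kinase that holds back CREB coactivators, measured 7.97, 7.69 and 7.07 CPM with vehicle and 30.9, 35.8 and 34.3 CPM with phenylephrine (log2 fold change 2.15, SE 0.073, adjusted p = 4.1e-25). Stk38l rose 2.77-fold, from 50.2 ± 1.8 to 139 ± 2.3 CPM. Map2k6, an activator of p38 kinases, measured 7.87, 6.28 and 7.41 CPM with vehicle and 1.68, 1.31 and 2.13 CPM with phenylephrine (log2 fold change -2.07, SE 0.16, adjusted p = 7.2e-14), and Pdk4, which inhibits pyruvate dehydrogenase, fell 2.38-fold, from 91.4 ± 6.6 to 38.4 ± 1.4 CPM.

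Phosphatases leaned upwards, with 151 tested members (164 in the table), of which 63 rose (41.7%), 45 fell (29.8%) and 43 did not pass the threshold (median log2 fold change 0.04). Library size scaling gave 38 higher (25.2%) and 76 lower (50.3%), against 17.3% and 53.8% of all genes. Dusp8 and Dusp4, which dephosphorylate mitogen-activated kinases, rose 5.18-fold, from 13.05 ± 0.76 to 67.6 ± 3.1 CPM, and 2.23-fold, from 16.1 ± 1.2 to 35.7 ± 1.3 CPM. Ptprn, a receptor-type phosphatase family protein of secretory granules, rose 4.40-fold. Receptor-type members also fell, with Ptprr at 12.7, 11.7 and 11.8 CPM with vehicle and 1.99, 1.98 and 2.78 CPM with phenylephrine (log2 fold change -2.42, SE 0.13, adjusted p = 5.5e-19) and Ptprk 2.77-fold lower, from 261 ± 10 to 94.0 ± 3.6 CPM.

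Genes of cyclic nucleotide and inositol lipid enzymes fell more often than they rose. Of the cyclases, natriuretic peptide receptors and phosphodiesterases, with 31 tested members (44 in the table), 4 rose (12.9%), 13 fell (41.9%) and 14 did not pass the threshold (median log2 fold change -0.19). Over all genes 32.6% rose and 31.9% fell. Library size scaling gave 2 of these members higher (6.45%) and 19 lower (61.3%), where all genes had 17.3% and 53.8%. Adcy5, a main adenylyl cyclase of the heart, measured 422, 439 and 414 CPM with vehicle and 199.5, 209 and 206 CPM with phenylephrine (log2 fold change -1.05, SE 0.030, adjusted p = 1.8e-27), whereas Pde4b, which breaks down cyclic AMP, measured 34.1, 34.0 and 34.9 CPM with vehicle and 84.8, 87.9 and 90.9 CPM with phenylephrine (log2 fold change 1.35, SE 0.042, adjusted p = 2.2e-26). Npr3, the clearance receptor of natriuretic peptides, fell 1.76-fold, and Npr2, the receptor of C-type natriuretic peptide, fell 1.72-fold. Of the phospholipase C, inositol lipid and diacylglycerol kinase genes, with 88 tested members (92 in the table), 17 rose (19.3%), 44 fell (50%) and 27 did not pass the threshold (median log2 fold change -0.18), a share of falls above that of all genes. Dgkb, a diacylglycerol kinase, measured 45.6, 47.9 and 50.3 CPM with vehicle and 12.97, 11.8 and 12.02 CPM with phenylephrine (log2 fold change -1.97, SE 0.061, adjusted p = 2.2e-26). Pik3ip1, an inhibitor of phosphoinositide 3-kinase, fell 3.42-fold, from 170.4 ± 0.49 to 49.8 ± 2.7 CPM, while the catalytic subunit genes Pik3cd and Pik3cb rose 2.15-fold and 1.72-fold.

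Heterotrimeric and small G proteins and their regulators were evenly split: of the 138 tested members (155 in the table), 45 rose (32.6%), 45 fell (32.6%) and 48 did not pass the threshold (median log2 fold change -0.03), against 27 higher (19.6%) and 69 lower (50%) with library size scaling. Rnd1, a small GTPase gene, measured 28.5, 33.6 and 35.7 CPM with vehicle and 233.9, 255 and 242 CPM with phenylephrine (log2 fold change 2.90, SE 0.078, adjusted p = 1.4e-08), and Rhoc rose 2.47-fold, from 84.3 ± 1.2 to 208 ± 2.5 CPM. Gnao1, the alpha subunit of Go, rose 2.22-fold. Gnb3, a G protein beta subunit gene, measured 20.8, 22.9 and 23.9 CPM with vehicle and 3.98, 4.45 and 3.75 CPM with phenylephrine (log2 fold change -2.47, SE 0.093, adjusted p = 1.1e-23), and Rgs6, a regulator that shortens signalling by inhibitory G proteins, fell 2.23-fold.

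Some genes above, among them Areg, Plk2, Rcan1, Epha2, Stk38l and Gnao1, rose at least 2-fold and hold a cAMP response element of the full form (TGACGTCA). The upstream sequences of Areg, Plk2, Rcan1 and Epha2 are shown as examples. Each is from RefSeq on GRCr8, covers the 250 bases before the start and is written 5′ to 3′ with the element in capitals. The regions are chr14:17265642-17265891 on the minus strand for Areg, chr2:43702286-43702535 on the plus strand for Plk2, chr11:45118237-45118486 on the minus strand for Rcan1 and chr5:158888379-158888628 on the plus strand for Epha2.
Areg: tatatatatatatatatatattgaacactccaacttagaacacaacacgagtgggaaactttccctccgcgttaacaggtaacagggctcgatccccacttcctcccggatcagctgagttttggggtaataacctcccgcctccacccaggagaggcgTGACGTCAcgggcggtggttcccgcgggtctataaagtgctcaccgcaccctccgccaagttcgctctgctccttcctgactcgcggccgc
Plk2: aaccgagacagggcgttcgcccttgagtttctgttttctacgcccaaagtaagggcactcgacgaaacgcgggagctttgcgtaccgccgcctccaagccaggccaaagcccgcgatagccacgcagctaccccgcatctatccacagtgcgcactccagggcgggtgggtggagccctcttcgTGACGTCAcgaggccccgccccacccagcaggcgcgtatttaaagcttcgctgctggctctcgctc
Rcan1: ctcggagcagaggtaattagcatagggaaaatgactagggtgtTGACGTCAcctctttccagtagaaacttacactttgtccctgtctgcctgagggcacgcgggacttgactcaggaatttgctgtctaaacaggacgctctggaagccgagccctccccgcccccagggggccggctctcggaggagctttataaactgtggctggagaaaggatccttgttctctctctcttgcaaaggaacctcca
Epha2: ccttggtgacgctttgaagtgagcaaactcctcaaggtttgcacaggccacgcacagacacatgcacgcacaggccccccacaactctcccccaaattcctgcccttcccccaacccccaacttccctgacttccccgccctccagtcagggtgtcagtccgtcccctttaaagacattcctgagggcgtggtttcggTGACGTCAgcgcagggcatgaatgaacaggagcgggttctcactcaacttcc
The element began 91 bases before the start in Areg, 66 in Plk2, 207 in Rcan1 and 52 in Epha2. Searched on both strands in the single windows of 8466 tested genes, it was present in 3.20% of all of them, in 5.02% of those at least 2-fold higher (13 of 259) and in 0.602% of those at least 2-fold lower (2 of 332). The 13 genes were, beside these 4, Lmcd1, Hs3st2, Avpi1, Clstn3, Stk38l, Vgf, Trmt61a, Gnao1 and Btg2; the call for Clstn3 was lost without phenylephrine replicate 2 (adjusted p = 0.064). AP-1 sites (TGANTCA) were present in 4.91%, 8.88% and 3.92% of the same 3 groups, TATA boxes (TATAAA) in 6.79%, 14.7% and 9.64%, and the E-box CACGTG in 9.26%, 10.0% and 5.12%. TGATGNAA, a form of the element bound by Atf4 and its partners, was in 1.83%, 4.25% and 2.41%. These shares describe letters in a window and were not tested. Of 11628 tested genes with a symbol that is not a date, 8836 had a window, and those with several windows were left out.

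**Figure D5:**
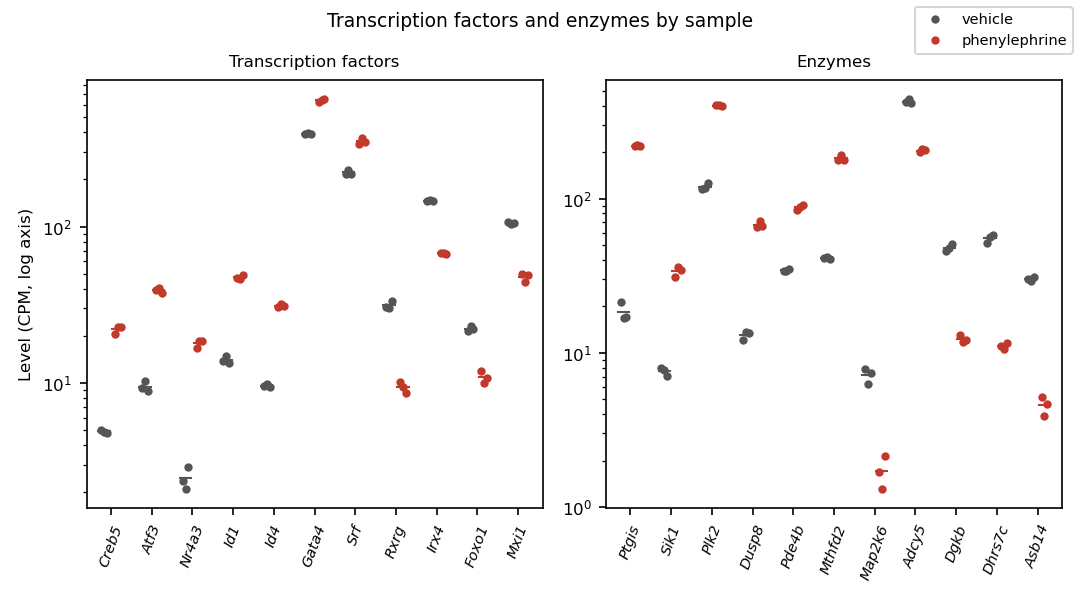
Level of 11 transcription factor genes (left) and 11 enzyme genes (right) in CPM on log axes. Points are the 3 vehicle (grey) and 3 phenylephrine (red) samples and lines are group means; the groups do not overlap for any gene shown (nor in 67.2% of all tested genes), and Ptgis has the largest rise among these enzymes and Asb14 the largest fall.

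Among enzymes of eicosanoid metabolism the rise of Ptgis, prostacyclin synthase, exceeded all others. Ptgis measured 21.5, 16.8 and 17.1 CPM with vehicle and 218, 223 and 220.3 CPM with phenylephrine (log2 fold change 3.57, SE 0.072, adjusted p = 8.9e-12). The phenylephrine samples were close together, while vehicle replicate 1 lay above the other vehicle samples. The cyclooxygenase gene Ptgs2, whose product makes the substrate of Ptgis, rose 1.74-fold, from 3.23 ± 0.57 to 5.59 ± 1.6 CPM. Abhd2, a lipid hydrolase, rose 2.75-fold. Ephx2, the soluble epoxide hydrolase, measured 42.4, 39.6 and 46.9 CPM with vehicle and 19.6, 19.8 and 18.3 CPM with phenylephrine (log2 fold change -1.16, SE 0.062, adjusted p = 1.6e-18), and Mgll, which degrades monoacylglycerols, fell 2.04-fold. Of the 63 tested members (86 in the table), 21 rose (33.3%), 22 fell (34.9%) and 20 did not pass the threshold (median log2 fold change -0.08), so the family as a whole stood near the background.

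Oxidoreductases fell more often than all genes did: of the 125 tested members (202 in the table), 23 rose (18.4%), 58 fell (46.4%) and 44 did not pass the threshold (median log2 fold change -0.19). Dhrs7c, a dehydrogenase of the sarcoplasmic reticulum, measured 51.8, 56.5 and 58.2 CPM with vehicle and 11.1, 10.6 and 11.5 CPM with phenylephrine (log2 fold change -2.32, SE 0.061, adjusted p = 1.1e-28), and Adhfe1, a mitochondrial hydroxyacid oxidizing enzyme, fell 4.97-fold, from 46.8 ± 4.3 to 9.41 ± 0.18 CPM. Enzymes of sterol synthesis on the list went the other way, with Cyp51 at 194, 184 and 188 CPM with vehicle and 759, 763 and 756 CPM with phenylephrine (log2 fold change 2.01, SE 0.030, adjusted p = 1.1e-36) and Hsd17b7 3.93-fold higher. Por, the reductase that supplies electrons to cytochromes P450, rose 2.12-fold.

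In amino acid and one-carbon metabolism, several enzymes of serine and folate use rose. Mthfd2, a mitochondrial folate enzyme, measured 41.2, 41.7 and 40.5 CPM with vehicle and 178.2, 190.2 and 179 CPM with phenylephrine (log2 fold change 2.15, SE 0.037, adjusted p = 1.0e-34), and Shmt2, which splits serine in mitochondria, rose 2.88-fold, from 71.0 ± 2.2 to 205 ± 5.0 CPM. Asns, asparagine synthetase, measured 68.4, 63.8 and 62.5 CPM with vehicle and 225, 224 and 221 CPM with phenylephrine (log2 fold change 1.78, SE 0.035, adjusted p = 4.8e-33), and Pycr1, an enzyme of proline synthesis, rose 3.18-fold. Outside the naming rule and chosen after their values were seen, Phgdh, which opens the path of serine synthesis, rose 2.24-fold, from 54.5 ± 3.4 to 122 ± 6.7 CPM, and Atf4, a transcription factor known to drive several of these genes, rose 1.72-fold, from 314 ± 2.1 to 540.5 ± 14 CPM. Prodh, which breaks proline down, fell 2.42-fold, and Mat1a, a methionine adenosyltransferase, fell 2.56-fold. Of the 88 tested members (105 in the table), 33 rose (37.5%), 31 fell (35.2%) and 24 did not pass the threshold (median log2 fold change -0.01), against 24 higher (27.3%) and 48 lower (54.5%) with library size scaling.

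Glycerolipid and sphingolipid genes included Plin5, which coats lipid droplets near mitochondria and measured 18.5, 19.3 and 16.8 CPM with vehicle and 4.46, 3.71 and 3.68 CPM with phenylephrine (log2 fold change -2.20, SE 0.10, adjusted p = 6.1e-21). Gpam, the first enzyme of triglyceride synthesis, fell 2.40-fold, from 179 ± 7.7 to 74.6 ± 2.3 CPM, and Sgpp2, a sphingosine 1-phosphate phosphatase, fell 7.45-fold. Sptlc2, a subunit of the first enzyme of sphingolipid synthesis, rose 1.71-fold, from 130.4 ± 1.8 to 223 ± 2.4 CPM, and Pcyt2, an enzyme of phosphatidylethanolamine synthesis, rose 1.73-fold. Of the 83 tested members (102 in the table), 27 rose (32.5%), 27 fell (32.5%) and 29 did not pass the threshold (median log2 fold change 0.02), against 16 higher (19.3%) and 44 lower (53%) with library size scaling. Glycosyltransferases and sulfotransferases had 126 tested members (184 in the table), of which 49 rose (38.9%), 32 fell (25.4%) and 45 did not pass the threshold (median log2 fold change 0.03). With library size scaling the counts were 28 higher (22.2%) and 56 lower (44.4%), against 17.3% and 53.8% of all genes. Chst3, a chondroitin sulfotransferase, rose 4.19-fold, from 3.06 ± 0.19 to 12.8 ± 1.2 CPM, and Gyg1, the primer of glycogen synthesis, measured 628, 636 and 657 CPM with vehicle and 1380.4, 1337 and 1375 CPM with phenylephrine (log2 fold change 1.09, SE 0.029, adjusted p = 1.1e-28). Chst9, a sulfotransferase, fell 11.03-fold, from 2.78, 3.01 and 3.004 CPM to 0.240, 0.0320 and 0.517 CPM.

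Ubiquitin ligase genes fell in a larger share than all genes, with 223 tested members (260 in the table), of which 53 rose (23.8%), 93 fell (41.7%) and 77 did not pass the threshold (median log2 fold change -0.11). Asb14, a substrate receptor of the ASB family, measured 30.2, 29.3 and 30.96 CPM with vehicle and 5.18, 3.87 and 4.62 CPM with phenylephrine (log2 fold change -2.73, SE 0.084, adjusted p = 1.7e-26), and its relative Asb18 fell 5.64-fold, from 7.44 ± 1.0 to 1.31 ± 0.40 CPM. Rnf152, a ligase of the lysosome, fell 4.14-fold. Trim16 rose 2.82-fold, from 13.9 ± 0.68 to 39.3 ± 2.1 CPM, and Rnf39 rose 4.96-fold. Of the exocytosis and stathmin genes, with 97 tested members (119 in the table), 31 rose (32%), 29 fell (29.9%) and 37 did not pass the threshold (median log2 fold change -0.08), against 20 higher (20.6%) and 45 lower (46.4%) with library size scaling. Stmn4, a microtubule-destabilizing protein gene best known from neurons, rose 12.3-fold, from 0.383, 0.267 and 0.558 CPM to 4.74, 6.53 and 3.94 CPM. The synaptotagmin gene Syt12 rose 10.5-fold, from 0.952 ± 0.21 to 10.00 ± 0.21 CPM, and Sypl2, a membrane protein of the muscle triad, rose 5.66-fold. Rab3b and Cadps, which act in regulated secretion, fell 2.38-fold and 2.19-fold.

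Cadherins and matrix genes moved in both directions, and the shares to set beside theirs are the 32.6% higher and 31.9% lower of all genes. Of the cadherins, with 63 tested members (84 in the table), 11 rose (17.5%), 21 fell (33.3%) and 31 did not pass the threshold (median log2 fold change -0.15). Dsc2, a desmosomal cadherin of the heart, rose 1.88-fold, from 32.3 ± 1.8 to 60.6 ± 3.4 CPM, Cdh17 rose 4.43-fold and Fat3 fell 4.49-fold. Of the integrin, collagen, laminin and related genes, with 115 tested members (133 in the table), 36 rose (31.3%), 46 fell (40%) and 33 did not pass the threshold (median log2 fold change -0.14). Col18a1, a basement membrane collagen, rose 2.20-fold, from 121 ± 10 to 266 ± 13 CPM. Itgb1bp2, encoding melusin, a muscle protein that binds integrin, rose 2.30-fold, from 91.1 ± 5.5 to 209.5 ± 6.2 CPM. The fibrillar collagen genes Col11a1, Col11a2 and Col2a1 fell 2.02-fold, 3.82-fold and 2.47-fold, and Smoc2, a matricellular protein gene, fell 2.57-fold.

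Among genes of none of these families, the largest rise named by the rule was that of Hsf2bp, which binds heat shock factor 2 and acts in meiosis, at 0.464, 0.412 and 0.462 CPM with vehicle and 6.38, 6.79 and 8.04 CPM with phenylephrine (log2 fold change 3.97, SE 0.21, adjusted p = 2.3e-19). Murc, a caveolar protein gene of muscle, rose 7.99-fold, from 9.64 ± 0.12 to 77.1 ± 6.6 CPM, and Hspa1l, a heat shock protein gene best known from testis, rose 8.69-fold. Piwil2, of the PIWI family that guards the germ line against transposons, measured 19.0, 19.4 and 22.0 CPM with vehicle and 4.05, 2.56 and 3.07 CPM with phenylephrine (log2 fold change -2.65, SE 0.11, adjusted p = 1.3e-20). Ttc29, a gene of the sperm tail, fell 4.73-fold. Several of these genes are thus known mainly from the germ line, and their levels here were low to moderate.

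The table held 436 rows named for microRNA genes, of which 21 had enough reads to be tested. Of these 21, 2 were higher and 3 lower, smaller shares than the 32.6% and 31.9% of all tested genes. These rows count reads of total RNA at the microRNA's locus, not the mature microRNA, and reads of a host or overlapping gene cannot be told apart there. Mir22, chosen after its values were seen, measured 6.13, 5.85 and 4.70 CPM with vehicle and 13.7, 14.7 and 11.98 CPM with phenylephrine (log2 fold change 1.28, SE 0.11, adjusted p = 6.9e-13). The mature sequences of its hairpin in RefSeq are shown with bases 2 to 8, the seed, in capitals.
rno-miR-22-5p: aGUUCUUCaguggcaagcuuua
rno-miR-22-3p: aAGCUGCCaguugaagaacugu
The level of these mature forms was not measured. Mir23b, at 0.766, 0.655 and 0.597 CPM with vehicle and 1.34, 1.31 and 1.001 CPM with phenylephrine, was the other row that rose, and Mir143, Mir25 and Mir3064 fell with log2 fold changes of -1.36, -2.49 and -0.53; Mir3064 was the only one of these 3 rows above 1 CPM in its samples. The call for Mir143 was lost without vehicle replicate 1 (adjusted p = 0.11) or without phenylephrine replicate 2 (adjusted p = 0.17), and that for Mir23b without vehicle replicate 3 (adjusted p = 0.057).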

How the data were processed

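The values used were the raw read counts per gene deposited by the authors, whole numbers with no normalization. STAR, HTSeq and DESeq and the rn5 build are named in the submitters' processing notes, without versions or roles, and the strand setting of the counting is not stated in them. Groups came from the sample titles. In R 4.3.3, edgeR 4.0.16 was run on the 6 columns: filterByExpr (minimum count 10, minimum total 15), trimmed mean of M-values, a robust quasi-likelihood fit, the quasi-likelihood F test, and Benjamini-Hochberg adjustment across the 11649 genes, called at 0.05. The adjusted p-values printed come from it. SE was computed as the size of the log2 fold change over the root of F. CPM used the normalized library sizes, and levels are mean ± SD (n = 3) or single samples. Intervals cover counting error only.

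Families were drawn by symbol, so members can differ in function. These lists and the rule for naming genes were chosen with earlier results of these data known, so counts within a family are descriptions. The rule took the 15 largest rises and 15 largest falls (at least 5 CPM on average in either group and samples that did not overlap) and up to 4 rises and 4 falls per family (at least 2 CPM), with hypertrophy and alpha1-adrenergic genes always; the text names a selection of these. The rule left out placeholder symbols (LOC, RGD or MGC numbers) and repeats of a symbol. A further 26 rows (21 tested) carry names turned into dates and are not named. Alternatives were other scalings, filters and thresholds, DESeq2 1.42.0, limma 3.58.1 (voom), a replicate block, a fit of all 9 samples and leaving out each sample.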

Additional observations from a re-analysis of the deposited data

How the results depend on the processing

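The main counts were 3794 genes higher, 3717 lower, 376 at least 2-fold higher and 472 at least 2-fold lower. Scaling by library size alone gave 2018 higher and 6266 lower, with 760 at least 2-fold lower, and a stricter filter, which tested 9421 genes, gave 221 at least 2-fold lower. Upper quartile factors gave 3032 higher and 4605 lower. DESeq2's size factors gave 3845 and 3670, DESeq2's test 3686 and 3482, limma-voom 3776 and 3673, no filter 3907 and 3704, and the fit of all 9 samples 3310 and 3429. Leaving out each sample in turn gave 3617 to 3676 higher and 3428 to 3521 lower. With the replicate number as a block the counts were 3783 higher and 3708 lower. Deviations from the group mean were not correlated between samples with the same number (correlations 0.00211, 0.0167 and -0.0973). With 3 samples per group these values cannot decide whether the numbers pair the samples, and the labels do not say. Over the named genes and 17 alternatives, 3892 of 3913 pairs kept the direction and the call of the main result and 21 lost the call, and none changed direction. The 21 fell in 8 genes, Kcnk2, Nkx2-5, Mir23b, Mir143, Irf7, Ctgf, Scn3b and Clstn3. The cause was not tested. Most named genes were chosen from these same samples for passing the threshold without overlap. Keeping the call was therefore largely built in, and the count of pairs is a description and not a check. Pairs in which the alternative did not test the gene were left out, and the stricter filter tested 201 of the 232 named genes.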

Other observations

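Some genes under the level required for naming were near 0 in one group, and they were chosen after their values were seen. Drd4, a dopamine receptor gene, had 24, 28 and 29 reads in the vehicle samples and 0 reads in each phenylephrine sample, at least 17.3-fold lower against a floor of 3 reads over the group. Asb10, of the same ligase family as Asb14, had 39, 64 and 61 reads with vehicle and 0, 2 and 1 with phenylephrine, a ratio of 35.0 after scaling for depth (95% interval 11.8 to 171). Gabrb2, a subunit of the GABA-gated chloride channel, had 72, 64 and 57 reads with vehicle and 2, 4 and 4 with phenylephrine (ratio 12.4, interval 6.57 to 26.2). Pde11a, a phosphodiesterase gene, had 41, 45 and 44 reads against 1, 5 and 3 (ratio 9.24, interval 4.72 to 20.7).

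In the other direction, Trh, the precursor of thyrotropin-releasing hormone, had 0, 6 and 2 reads in the vehicle samples and 45, 29 and 37 with phenylephrine, a ratio of 21.7 (interval 10.6 to 51.5). Gpr3, an orphan receptor that raises cyclic AMP, had 11, 2 and 7 reads with vehicle and 27, 31 and 51 with phenylephrine (ratio 8.52, interval 5.25 to 14.5). The edgeR adjusted p was 3.4e-07 for Drd4, 3.4e-09 for Asb10, 3.9e-09 for Gabrb2, 6.4e-07 for Pde11a, 4.9e-09 for Trh and 1.2e-07 for Gpr3. The intervals cover counting error only, and genes at this level were not drawn by the rule.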
